A study of Mus musculus with 8 samples.

Results

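The potassium channel genes of the mouse were taken as all gene symbols beginning with Kcn that the array's probes reach through their accessions. There were 84 such symbols, with 118 probes, among 18217 genes with a symbol. Of these, 82 encode channel subunits and 2 (Kcnq1ot1 and Kcnmb4os1) are non-coding transcripts that carry a channel gene's name. Whole hearts of 9-week-old male C57BL/6J mice, a standard inbred laboratory strain, were profiled for messenger RNA, each on its own one-colour Agilent array of the mouse genome. The groups were 4 satiated mice and 4 mice fasted for 2 days, and both had the same strain, sex and age, with no allele or agent named for either. The question was how the fast alters the transcripts of the heart. The labels number the hearts of a group as separate samples, so every p-value is read against the spread of those samples, which may be technical.

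Potassium channels let potassium leave the cell, which ends the cardiac action potential and holds the resting potential. A channel is built from pore-forming subunits, which carry the current, and auxiliary subunits, which change its gating, conductance or amount at the membrane. In the mouse ventricle the transient outward currents and the slowly inactivating delayed rectifiers do most of the repolarising, whereas the rapid and slow delayed rectifiers that dominate in large mammals are small. Inward rectifiers set the resting potential, and the ATP-sensitive channels link excitability to the energy state of the cell.

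The arrays lay on 2 slides of 4, and each slide held hearts 1 and 2, or 3 and 4, of both groups. On slide 1 the arrays detected 66.7 to 68.9% of probes well above background, whereas those of slide 2 detected 54.4 to 55.6%. Levels are given as scaled intensities, on a linear scale on which 100 is the 75th percentile of that array's probes. Differences are log2 values of fasted minus satiated hearts. A gene counted as measured when the scanner software marked its probe well above background for 4 or more hearts. This held for 43 of the 84 Kcn symbols, 42 of them subunit genes, and 29 were above background on all 8 arrays. Of the other 41, 26 were above background on no array and 15 on 1 to 3 arrays. No gene of the family was above background on every array of one group and on none of the other.

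Of the 43 measured Kcn genes, 11 passed the test (limma, two-sided, Benjamini-Hochberg adjusted p under 0.05 over 20203 genes and unnamed probes), 2 higher and 9 lower in fasted hearts. Over everything tested, 20.2% passed, 9.82% higher and 10.3% lower. In whole hearts, fewer cells of a type and less RNA per cell cannot be told apart. Below 0 lay 34 of the 43, against 10171 of the 20203 tested. The median difference of the 43 genes was -0.31, against -0.00 over all genes and unnamed probes tested. With normexp background correction, which compresses dim signals, these medians were -0.07 and 0.05, and with no filter on dim probes they were -0.14 and 0.08. All 4 fasted hearts lay outside the range of the satiated hearts for 13 of the 43, 10 lower and 3 higher, against 27.6% of all tested, 14.3% lower and 13.3% higher. Of the 43, 8 were called with a difference of at least 2-fold, against 7.38% of all tested. Kcne1l and Kcnmb1 are among these 8, and their sizes were taken partly against fasted signals not well above background. Kcne1, Kcnd2, Kcnt1, Kcnt2, Kcnv2, Kcnq1 and Kcnn2 passed with any single heart left out, whereas Kcnmb1, Kcna6 and Kcne1l each lost the call without at least 1 heart, as given with each gene.

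**Figure D1:**
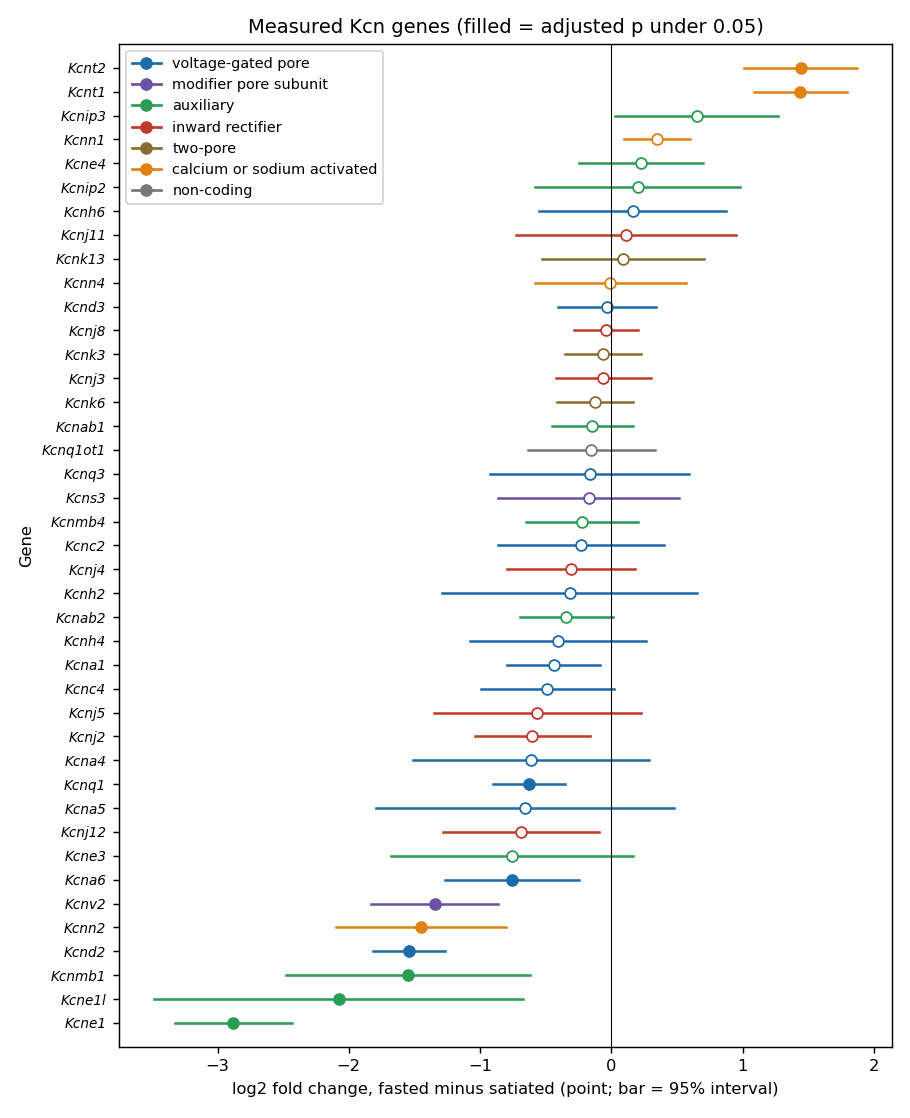
The log2 difference of fasted minus satiated hearts (horizontal axis) for 41 of the 43 measured Kcn genes (vertical axis), with points for the estimate, bars for the 95% interval of the limma fit, colours for the kind of subunit and filled points for an adjusted p under 0.05. The 8 filled points left of 0 run from -2.88 for Kcne1 to -0.63, and the 2 to the right, Kcnt1 and Kcnt2, both lie at 1.44.

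The lower calls lay among the voltage-gated pore subunits (4 of 15 measured), the modifier pore subunits (1 of 2), the auxiliary subunits (3 of 10) and the calcium- or sodium-activated channels (1 of 5), and both higher calls lay in the last of these kinds. None of the 7 measured inward rectifiers and none of the 3 measured two-pore channels passed the adjusted test, although 2 of the inward rectifiers had an unadjusted limma p under 0.05. A list of 25 measured subunits of the known cardiac repolarising and resting currents held 7 lower and 0 higher calls, with a median difference of -0.56. Of all tested, 10.3% were lower and 9.82% higher, with a median of -0.00. That list was drawn up with results of these hearts known, and it does not hold Kcnt1 or Kcnt2, the higher-called genes. Its median rests partly on dim members, whose differences were smaller with normexp background correction. There Kcnj5 differed by -0.02, Kcna4 by -0.16 and Kcne3 by -0.14, in place of -0.56, -0.61 and -0.75. The bright called member Kcnd2 changed less, with -1.43 in place of -1.54. The list median with that correction was not taken.

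Kcnd2 encodes Kv4.2, the pore of the fast transient outward current in the mouse ventricle, and was the voltage-gated pore gene with the smallest p. Its scaled intensities were 490, 469, 509 and 471 in satiated hearts 1 to 4 and 166, 194, 146 and 163 in fasted hearts 1 to 4. Every fasted heart lay far below the lowest satiated heart. The gene fell by 1.54 ± 0.12 (SE) on the log2 scale, 2.91-fold (limma, adjusted p = 0.000334), with differences of -1.42 on slide 1 and -1.67 on slide 2. A second Kcnd2 probe gave scaled intensities of 78.4, 66.5, 71.6 and 61.1 in satiated and of 23.7, 26.8, 15.4 and 18.4 in fasted hearts. On that probe the difference was -1.75 ± 0.19 (limma over every probe, adjusted p = 0.00112), so the 2 probes gave the same direction.

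The stretch upstream of Kcnd2 is shown because it was the lower-called gene with the smallest p that has a promoter entry in the RefSeq table. The run ends at the base before the annotated gene start, on GRCm38.p6, chr6:21215096-21215345, plus strand, and capitals mark a GC box.

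Kcnd2: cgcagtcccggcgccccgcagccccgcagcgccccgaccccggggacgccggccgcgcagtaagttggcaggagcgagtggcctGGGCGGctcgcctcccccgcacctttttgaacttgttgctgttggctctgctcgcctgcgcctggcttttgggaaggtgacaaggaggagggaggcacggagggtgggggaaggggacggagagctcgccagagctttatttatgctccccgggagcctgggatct

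This stretch of 250 bases is 68.8% G or C. The table held a promoter for 61 of the 84 Kcn genes, for 31 of the 43 measured and for 5 of the 11 called (Kcnd2, Kcnt2, Kcna6, Kcnmb1 and Kcne1l). The GC box GGGCGG was found on either strand in the first 250 bases of a promoter entry for 20 of the 31 measured genes. It was found in 32.7% of all 32851 promoters in the table, and among called genes in Kcnd2 and Kcne1l. Genes were counted if any of their entries matched, whereas the shares of all promoters count each entry, so these are unlike units. For Kcnt2 the 250 bases run past the gene start. The E-box CACGTG, which reads the same on both strands, was found in 5 of the 31, against 6.02% of all, and in none of the 5 called genes with an entry. The TATA box TATAAA (12.4% of all promoters), the FoxO core GTAAACA (3.17%), the PPAR direct repeat (0.0335%) and the glucocorticoid receptor palindrome (0.0396%) were found in 0 of the 31. None of these motifs contains another, and a match describes the letters only.

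The other subunits of the transient outward current did not pass the test. Kcnd3, which encodes Kv4.3, had scaled intensities of 28.7, 27.8, 31.8 and 35.3 in satiated and of 27.4, 24.6, 37.9 and 32.0 in fasted hearts. Its difference was -0.03, with a 95% interval of -0.40 to 0.34, which leaves out a change of the size seen for Kcnd2. Kcnip2 encodes KChIP2, the auxiliary subunit that brings Kv4 channels to the membrane, and had scaled intensities of 83.3, 76.6, 138 and 147 in satiated and of 88.1, 87.4, 209 and 140 in fasted hearts. Both groups were high on slide 2 and low on slide 1, and the difference of 0.20 ± 0.34 did not pass the test (limma, adjusted p = 0.738). Kcna4 encodes Kv1.4, the pore of the slow transient outward current, and lay between 8.27 and 12.4 in satiated hearts and at 8.38, 9.71, 2.75 and 8.97 in fasted hearts. Fasted heart 3 alone was low, and the difference of -0.61 ± 0.39 did not pass the test (limma, adjusted p = 0.32), nor did that of -0.18 without this heart (0.501).

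Both subunits of the slow delayed rectifier were lower in fasted hearts. Kcne1 encodes minK, the auxiliary subunit that slows the opening of Kv7.1, and had the smallest p and the largest called change of the 43 genes. Its scaled intensities were 281, 319, 258 and 221 in satiated and 31.5, 50.8, 30.6 and 35.7 in fasted hearts. The groups lay far apart on both slides. The gene fell by 2.88 ± 0.19 on the log2 scale, 7.36-fold (limma, adjusted p = 0.000233), with differences of -2.90 on slide 1 and -2.85 on slide 2. A second Kcne1 probe was above background on no array and was not tested, so the call rests on 1 of its 2 probes. Kcnq1, which encodes the Kv7.1 pore itself, had scaled intensities of 747, 850, 672 and 736 in satiated and of 476, 528, 442 and 495 in fasted hearts. These groups did not overlap either, and the gene fell by 0.63 ± 0.12 on the log2 scale (limma, adjusted p = 0.00916), with differences of -0.67 on slide 1 and -0.59 on slide 2. Kcnq1ot1, the antisense transcript of the Kcnq1 locus, differed by -0.15 ± 0.21 (limma, adjusted p = 0.673).

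Kcnh2 encodes ERG, the pore of the rapid delayed rectifier. Scaled intensities of Kcnh2 were 81.4, 108, 236 and 185 in satiated and 66.0, 87.5, 177 and 157 in fasted hearts. Most of this spread lay between the slides, with all 4 hearts on slide 2 above all 4 on slide 1. The difference was -0.32 ± 0.42 (limma, adjusted p = 0.656) and was -0.31 on slide 1 and -0.33 on slide 2. With the slide as a block the adjusted p was 0.134, and with the replicate number in the fit it was 0.0374.

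Among the slowly inactivating delayed rectifiers, Kcnv2 was lower and Kcna5 did not pass the test. Kcnv2 encodes Kv8.2, a modifier subunit that forms no channel of its own and joins other voltage-gated pores. In satiated hearts its scaled intensities were 96.2, 84.1, 60.7 and 74.4, and in fasted hearts 34.3, 40.4, 24.6 and 25.6. Every fasted heart was below every satiated heart, and the gene fell by 1.35 ± 0.21 on the log2 scale, 2.54-fold (limma, adjusted p = 0.0042), with differences of -1.27 on slide 1 and -1.42 on slide 2. The other measured modifier, Kcns3, differed by -0.17 ± 0.30 (limma, adjusted p = 0.745).

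Kcna5 encodes Kv1.5, the pore of the ultrarapid current, and had scaled intensities of 270, 165, 237 and 270 in satiated and of 210, 212, 47 and 221 in fasted hearts. Fasted heart 3 stood far below the other 7, and 3 fasted hearts lay within the satiated range. The difference was -0.66 ± 0.49 (limma, adjusted p = 0.401), with 0.00 on slide 1 and -1.31 on slide 2, the slide that holds fasted heart 3. Without that heart the difference was -0.11 (limma, adjusted p = 0.759).

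**Figure D2:**
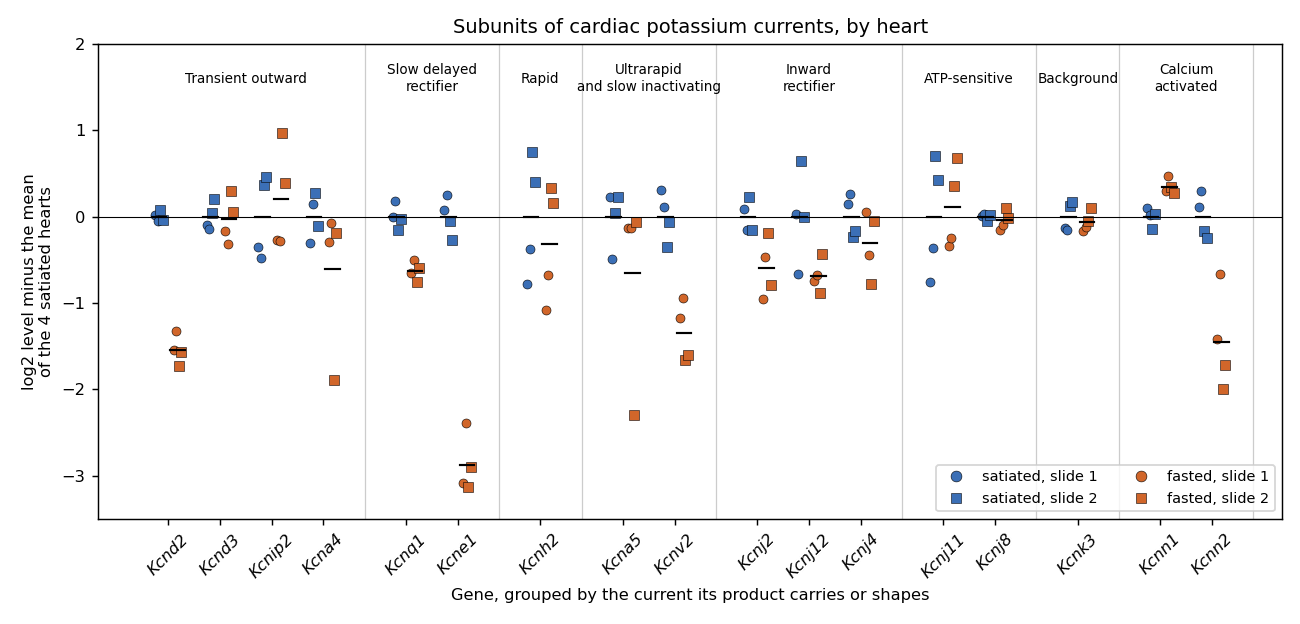
The log2 level of each heart minus the mean of the 4 satiated hearts (vertical axis), for 17 subunits grouped by current (horizontal axis), with circles for slide 1, squares for slide 2 and black bars for group means. Kcnd2, Kcnq1, Kcne1, Kcnv2, Kcnj2 and Kcnn2 have all fasted hearts below all satiated hearts, while the spread of Kcnh2, Kcnip2 and Kcnj11 follows the slide and the low means of Kcna4 and Kcna5 come with fasted heart 3.

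Kcna6 encodes Kv1.6, a pore better known from neurons, and was also called lower. The scaled intensities of Kcna6 were 92.5, 84.0, 74.7 and 87.4 in satiated and 64.6, 50.8, 31.7 and 59.8 in fasted hearts. The groups did not overlap, and the gene fell by 0.76 ± 0.22 on the log2 scale (limma, adjusted p = 0.0464), with differences of -0.62 on slide 1 and -0.89 on slide 2. It passed without fasted heart 1 (adjusted p = 0.0446) or fasted heart 3 (0.0317), and not without satiated heart 1 (0.105), 2 (0.0997), 3 (0.0722) or 4 (0.107) or fasted heart 2 (0.0842) or 4 (0.0545).

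Kcna1 encodes Kv1.1, and its scaled intensities were 169, 138, 133 and 178 in satiated and 122, 101, 99.0 and 132 in fasted hearts. The highest fasted heart lay just below the lowest satiated heart. The difference of -0.44 ± 0.16 missed the threshold (limma, adjusted p = 0.0828), and with the replicate number in the fit the adjusted p was 0.0143. Kcnc2, Kcnc4, Kcnh4, Kcnh6 and Kcnq3, further voltage-gated pore genes, did not pass. Kcnc4, which encodes a Kv3 pore, differed by -0.49 ± 0.22 and passed with the slide as a block (limma, adjusted p = 0.0236). It was above background in 4 satiated and 2 fasted hearts. Its difference was thus taken partly against fasted signals not well above background.

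Of the 10 measured auxiliary subunits, 3 were lower and none was higher. Besides Kcne1 these were Kcne1l and Kcnmb1, both of which were dim. Kcne1l, now called Kcne5, is a relative of minK that inhibits Kv7.1 channels. Its scaled intensities were 10.2, 10.2, 9.06 and 9.72 in satiated and 10.1, 1.618, 1.45 and 1.21 in fasted hearts. The satiated hearts were close together and all above background, whereas fasted heart 1 alone was above background in its group and lay within the satiated range. The gene thus counted as measured through the satiated hearts, and its difference of -2.08 ± 0.61 (limma, adjusted p = 0.0466) was taken mostly against fasted signals not well above background, so its size is not a measured fold. Without fasted heart 1, and on slide 2, no fasted value was above background, and no difference is given there. With any other single heart left out the adjusted p ran from 0.088 to 0.108. With normexp background correction the difference was -0.59 (limma, adjusted p = 0.0739).

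Kcnmb1 encodes the beta-1 subunit of the large-conductance calcium-activated channel of smooth muscle. Its scaled intensities were 4.51, 4.50, 8.97 and 2.92 in satiated and 2.30, 2.45, 1.33 and 0.966 in fasted hearts, of which 3 satiated and 2 fasted hearts were above background. All fasted hearts were below all satiated hearts, with a difference of -1.55 ± 0.41 (limma, adjusted p = 0.0303). That difference was taken partly against fasted signals not well above background, so its size is not a measured fold. The difference was -0.93 on slide 1, and on slide 2 neither fasted heart was above background. It did not pass without satiated heart 1 (adjusted p = 0.0618), 2 (0.0677) or 3 (0.0606), nor without fasted heart 3 (0.0713) or 4 (0.0638). With normexp background correction the difference was -0.21 (limma, adjusted p = 0.361). A second Kcnmb1 probe and the pore partner, Kcnma1, were above background on no array. Of 10 markers of smooth muscle cells and pericytes, all measured, 4 were also lower (Cspg4, Smtn, Vtn and Acta2) and 0 higher. These counts stand beside 10.3% lower and 9.82% higher calls over all tested. The summed scaled intensity of the 10 markers was 11140 to 13010 in satiated and 9673 to 12210 in fasted hearts. The part of these cells in the Kcnmb1 difference was not tested.

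The other auxiliary subunits did not pass the test. The minK relatives Kcne3 and Kcne4 differed by -0.75 ± 0.40 and 0.23 ± 0.21. Kcnab1 and Kcnab2, the cytoplasmic beta subunits of Kv1 channels, differed by -0.14 ± 0.13 and -0.34 ± 0.15. Kcnab2 passed without fasted heart 2 (limma, adjusted p = 0.0311) and not over all hearts (0.161). Kcnmb4 differed by -0.22 ± 0.19. Kcnip3, a calcium sensor that also binds Kv4 channels, had the largest positive value, 0.65 ± 0.27 (limma, adjusted p = 0.131), with overlapping groups.

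**Figure D3:**
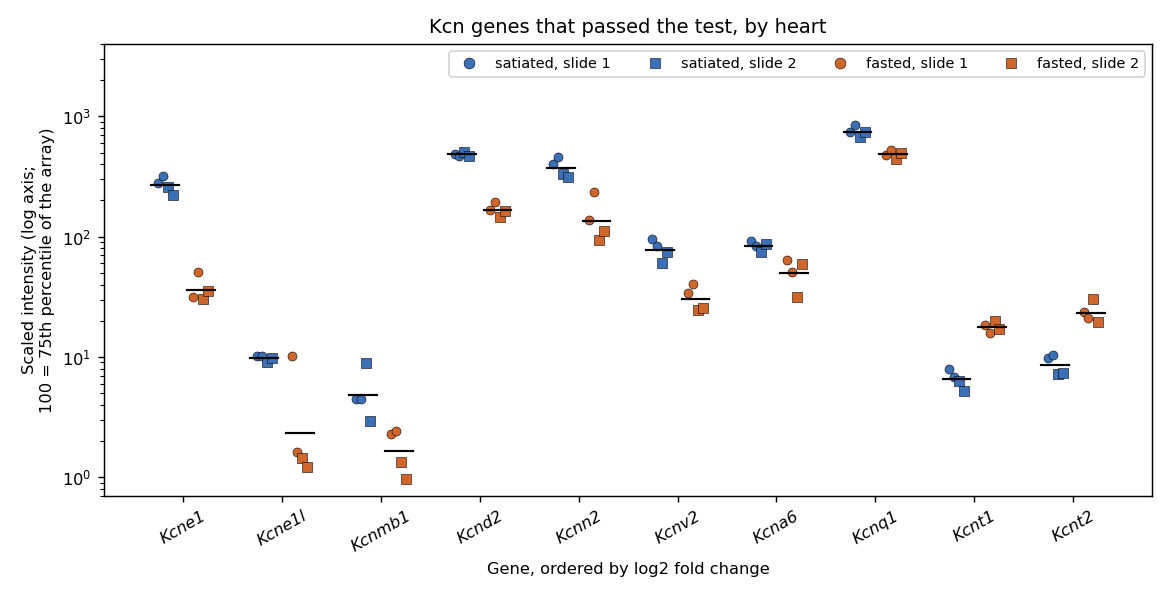
The scaled intensity of each heart (vertical axis, log scale, 100 is the 75th percentile of the array) for 10 of the 11 called Kcn genes (horizontal axis), with circles for slide 1, squares for slide 2 and black bars for group means of log2 values. The groups are apart for every gene shown but Kcne1l, in which fasted heart 1, at 10.1, lies among the satiated hearts.

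No inward rectifier gene passed the test, and 6 of the 7 measured lay below 0, against 10171 of the 20203 tested. Kcnj2, Kcnj12 and Kcnj4 encode Kir2.1, Kir2.2 and Kir2.3, the pores of the current that holds the resting potential. Kcnj2 was dim, with scaled intensities of 7.42, 6.25, 8.17 and 6.26 in satiated and of 3.59, 5.03, 6.13 and 4.05 in fasted hearts. All fasted hearts were below all satiated hearts, by a narrow margin on slide 2. The difference of -0.60 ± 0.19 missed the threshold (limma, adjusted p = 0.0591) and passed it with the slide as a block (0.0399), with the replicate number in the fit (0.0345) and without fasted heart 3 (0.0233). With normexp background correction it was -0.05 (limma, adjusted p = 0.825).

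Kcnj12 had scaled intensities of 143, 88.0, 219 and 140 in satiated and of 83.4, 87.8, 75.5 and 104 in fasted hearts. The groups overlapped through satiated heart 2. The difference was -0.69 ± 0.26 (limma, adjusted p = 0.101), and without satiated heart 2 it was -0.91 with an adjusted p of 0.0317. Kcnj4 differed by -0.31 ± 0.21 (limma, adjusted p = 0.354).

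The pores of the ATP-sensitive channel showed no difference that passed on the probes that represent them. Kcnj11 encodes Kir6.2, the pore of the muscle cell channel, and lay between 129 and 356 in satiated and between 173 and 350 in fasted hearts, with all slide 2 hearts above all slide 1 hearts. Its difference was 0.11, with a 95% interval of -0.73 to 0.95 in the fit without slide. With the slide as a block it was 0.11 ± 0.14 (limma, adjusted p = 0.58). Kcnj8 encodes Kir6.1, the pore of the vascular form, and had scaled intensities of 1980, 2015, 1914 and 1998 in satiated and of 1774, 1849, 2119 and 1961 in fasted hearts. Its difference was -0.04, with a 95% interval of -0.28 to 0.20. A second Kcnj8 probe gave 204, 201, 234 and 220 in satiated and 127, 156, 99.4 and 165 in fasted hearts. That probe differed by -0.67 ± 0.17 (limma over every probe, adjusted p = 0.0284), so the 2 probes of Kcnj8 disagreed.

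Kcnj3 and Kcnj5 encode the pair of subunits of the acetylcholine-activated channel, which slows the atria and the sinus node. Kcnj3 had scaled intensities of 46.1, 45.9, 41.0 and 37.9 in satiated and of 48.7, 47.0, 34.9 and 34.6 in fasted hearts, a difference of -0.06 with a 95% interval of -0.42 to 0.30. Kcnj5 was above background in 3 satiated and 1 fasted hearts and differed by -0.56 ± 0.34 (limma, adjusted p = 0.296). Of 8 markers of atrial muscle, all measured, 1 was lower (Myl7, by 0.58) and 0 higher, against 10.3% and 9.82% of all tested. Their summed scaled intensity was 89940 to 114100 in satiated and 92980 to 110800 in fasted hearts.

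Kcnj14, which encodes Kir2.4, was not measured, and its scaled intensities were 4.78, 5.88, 4.65 and 4.98 in satiated and 0.407, 0.398, 1.21 and 1.01 in fasted hearts. It was above background in 2 satiated and 0 fasted hearts, so it entered the comparison only where no filter on dim probes was used. It is named because it was the only unmeasured Kcn gene called there, a choice made after its values were seen.

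Two-pore channels carry background potassium current, and none of the 3 measured passed the test. Kcnk3 encodes TASK-1 and had scaled intensities of 1204, 1189, 1434 and 1481 in satiated and of 1178, 1217, 1270 and 1412 in fasted hearts. The groups overlapped fully, and the difference was -0.06, with a 95% interval of -0.35 to 0.23. Kcnk6 and Kcnk13 differed by -0.13 ± 0.13 and 0.09 ± 0.27. The stretch-activated channel gene Kcnk2 was above background in 2 satiated and 0 fasted hearts and was not measured.

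The calcium- and sodium-activated channels moved both ways. Kcnn2 encodes SK2, a small-conductance channel opened by calcium, and had scaled intensities of 401, 457, 332 and 313 in satiated and of 139, 234, 93.3 and 112 in fasted hearts. Fasted heart 2 was the highest of its group and still below every satiated heart. The gene fell by 1.45 ± 0.28 on the log2 scale, 2.73-fold (limma, adjusted p = 0.00991), with differences of -1.25 on slide 1 and -1.65 on slide 2. A second Kcnn2 probe differed by -1.48 ± 0.25 (limma over every probe, adjusted p = 0.00567).

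Kcnn1, which encodes SK1, had scaled intensities of 85.4, 80.8, 72.4 and 82.0 in satiated and of 98.2, 111, 102 and 96.3 in fasted hearts. Every fasted heart was above every satiated heart. The difference of 0.35 ± 0.11 missed the threshold (limma, adjusted p = 0.059) and passed it with the slide as a block (0.0181) and with the replicate number in the fit (0.0457). Kcnn4, the intermediate-conductance channel, differed by -0.01 ± 0.25.

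Kcnt1 and Kcnt2 encode Slack and Slick, large channels opened by sodium inside the cell, and were the only Kcn genes higher in fasted hearts at the adjusted threshold. Kcnt1 had scaled intensities of 7.91, 6.87, 6.35 and 5.21 in satiated and of 18.5, 15.8, 19.7 and 17.0 in fasted hearts. It was above background in 3 of the 4 satiated and all 4 fasted hearts, and the groups were well apart. The gene rose by 1.44 ± 0.15 on the log2 scale (limma, adjusted p = 0.00108), with differences of 1.21 on slide 1 and 1.67 on slide 2. The other Kcnt1 probes, each above background on at most 3 arrays, were not tested and differed by 1.17 and 0.38.

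Kcnt2 had scaled intensities of 9.75, 10.46, 7.17 and 7.43 in satiated and of 23.7, 21.3, 30.1 and 19.6 in fasted hearts. The lowest fasted heart was far above the highest satiated heart on this probe, and the gene rose by 1.44 ± 0.19 on the log2 scale (limma, adjusted p = 0.00218), with differences of 1.15 on slide 1 and 1.74 on slide 2. A second Kcnt2 probe, above background on all 8 arrays, gave 8.99, 8.20, 9.08 and 9.24 in satiated and 9.34, 12.1, 13.8 and 9.14 in fasted hearts. It differed by 0.30 ± 0.16 and did not pass (limma over every probe, adjusted p = 0.219), so the call of Kcnt2 rests on 1 of its 2 probes. With normexp background correction the differences of Kcnt1 and Kcnt2 were 0.77 and 0.87, and both still passed.

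The stretch upstream of Kcnt2 is shown because Kcnt2 was the higher-called gene with a promoter entry. It holds 189 bases with 58.2% G or C, on GRCm38.p6, chr1:140245468-140245656, plus strand, and ends at the base before the RefSeq gene start. None of the motifs searched was found in it, so it has no capitals.

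Kcnt2: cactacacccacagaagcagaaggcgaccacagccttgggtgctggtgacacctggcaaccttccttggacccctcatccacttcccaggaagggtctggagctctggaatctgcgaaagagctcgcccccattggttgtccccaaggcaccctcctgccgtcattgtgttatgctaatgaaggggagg

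Of 10 markers of cardiac nerves, 6 were measured, with 1 higher (Prph) and 1 lower (S100b), and the neuronal markers Th and Snap25 were above background on no array. Their summed scaled intensity was 189 to 233 in satiated and 132 to 186 in fasted hearts. The part of nerve cells in the differences of Kcna6, Kcna1, Kcnt1 and Kcnt2 was not tested. Of 10 defining markers of heart muscle cells, all were measured, 1 was higher (Nppb) and 1 lower (Actc1). The conduction system markers had 6 of 10 measured, 0 higher and 1 lower, Gja5, which fell by 1.55 ± 0.30 on the log2 scale (limma, adjusted p = 0.00959). The endothelial list had 0 calls among 10, and the fibroblast list had 1 higher and 5 lower among 10. The marker counts of this paragraph stand beside 9.82% higher and 10.3% lower calls over all tested.

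The direction of the difference was compared between slides, each with 2 hearts per group. It was the same on both for 30 of the 43 measured Kcn genes, 69.8%, against 81.1% of all tested. All 11 called genes had the same direction on both slides, as had each of the 4073 genes and probes called over the whole array, so a call here already implied it. With the slide as a block, 15 Kcn genes passed, 3 higher and 12 lower, against 35.5% of all tested, and those added included Kcnc4, Kcnj2 and Kcnn1. With the replicate number in the fit, 16 passed, 3 higher and 13 lower, against 32.1% of all tested, and the 5 added were Kcna1, Kcnc4, Kcnh2, Kcnj2 and Kcnn1. All 11 genes called without a block passed in both of these fits. Regardless of group, 8 of the 43 genes had all slide 2 hearts on one side of all slide 1 hearts, 5 higher and 3 lower, against 23.2% of all tested. The largest such shift was that of Kcnh2, 1.14 on the log2 scale.

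**Figure D4:**
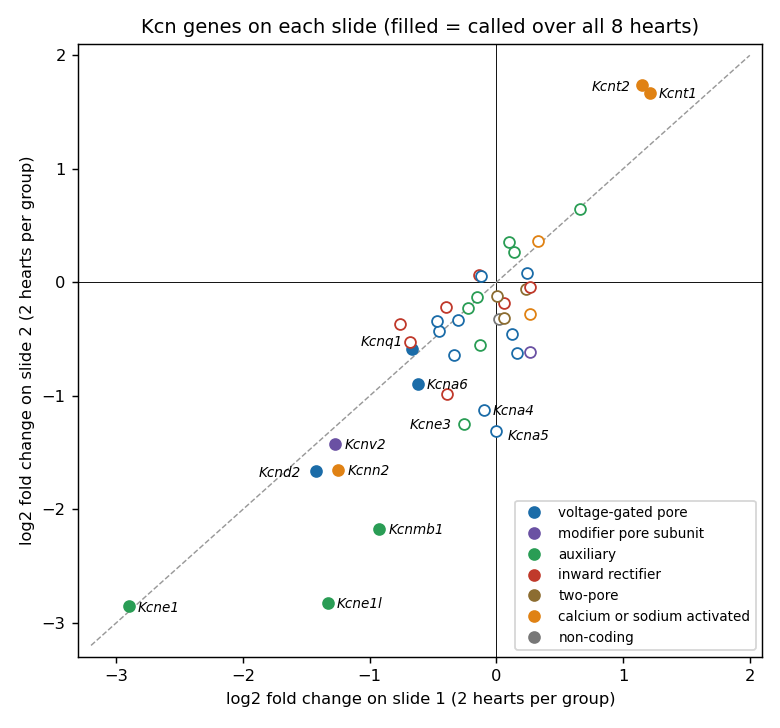
The log2 difference of fasted minus satiated hearts on slide 1 (horizontal axis) against that on slide 2 (vertical axis), each from 2 hearts per group, for 41 of the 43 measured Kcn genes, with filled points for 10 of the 11 called genes and a dashed line where both are equal. The called genes shown lie below 0 on both axes or above 0 on both, and Kcne1l, Kcnmb1, Kcna4, Kcna5 and Kcne3 lie well below the line. For Kcne1l and Kcnmb1 the slide 2 values are against fasted hearts not above background.

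Other genes of potassium handling were read from 3 lists, whose counts stand beside 9.82% higher and 10.3% lower calls over all tested and lie near those shares. Of 34 channel partners and anchors whose symbols do not begin with Kcn, 31 were measured, 4 higher and 4 lower, with a median difference of 0.06. Amigo1, an auxiliary subunit of voltage-gated channels, rose by 0.48 ± 0.12 (limma, adjusted p = 0.0246). That call was lost without satiated heart 1 (adjusted p = 0.0653), 2 (0.0743) or 4 (0.0635) and without fasted heart 1 (0.0602) or 4 (0.0578).

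Akap6 and Akap5 encode anchors that hold protein kinase A near channels, and both were lower. Akap6 fell by 0.91 ± 0.14 (limma, adjusted p = 0.00389) and Akap5 by 2.75 ± 0.43 (limma, adjusted p = 0.00436) on the log2 scale. With normexp background correction the difference of Akap5 was -1.49 (limma, adjusted p = 0.00889). The scaled intensities of Akap5 were 23.9, 67.1, 15.6 and 46.3 in satiated and 4.94, 6.21, 3.66 and 5.04 in fasted hearts, so its satiated level varied widely and still lay above all fasted hearts. The value of fasted heart 3 lay below 5.37, the lowest level marked well above background on its array. The size of the Akap5 fall is therefore uncertain. The sulphonylurea receptors that complete the ATP-sensitive channel were Abcc8, which fell by 0.37 ± 0.11 (limma, adjusted p = 0.0429), and Abcc9, which differed by -0.42 ± 0.14 (limma, adjusted p = 0.0761). These receptors are named for the channel they share with Kcnj11 and Kcnj8, a choice made after their values were seen.

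Of 42 transcription, trafficking and degradation factors that act on cardiac potassium channels, 39 were measured, 2 higher and 4 lower, with a median difference of -0.14. Fhl2, a LIM-domain protein that binds minK, fell by 1.02 ± 0.12 (limma, adjusted p = 0.00123). Rnf207, a ring-finger protein that acts on ERG channels, fell by 1.18 ± 0.19 (limma, adjusted p = 0.00474). Nedd4l, a ubiquitin ligase that removes Kv7.1 and other channels from the membrane, rose by 0.72 ± 0.12 (limma, adjusted p = 0.00469). Nr3c1, the glucocorticoid receptor, fell by 0.65 ± 0.13 (limma, adjusted p = 0.0126). For each of these the groups did not overlap, and each passed with any single heart left out.

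Of 25 pumps, cotransporters and other pathways that move potassium, 21 were measured, 1 higher and 2 lower, with a median difference of -0.25. Tmem38b, a potassium-permeable channel of the sarcoplasmic reticulum, rose by 1.62 ± 0.32 (limma, adjusted p = 0.01), from scaled intensities of 24.6, 25.1, 49.2 and 41.0 in satiated to 82.8, 74.2, 161 and 114 in fasted hearts. Slc12a7, the potassium-chloride cotransporter KCC4, fell by 0.86 ± 0.12 (limma, adjusted p = 0.0031). Ccdc51, the pore of a mitochondrial ATP-sensitive channel, fell by 0.83 ± 0.16 (limma, adjusted p = 0.00939).

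The 41 Kcn symbols that were not measured included pore genes known mainly from brain, such as Kcna2, Kcnb2 and Kcnj6, all above background on no array. The large-conductance calcium-activated pore Kcnma1 and the minK relative Kcne2 were likewise above background on no array. Among the calcium- or sodium-activated channels 5 of 8 on the array were measured, among voltage-gated pores 15 of 28, among auxiliary subunits 10 of 15, among inward rectifiers 7 of 14, among two-pore channels 3 of 9 and among modifiers 2 of 8. The filter on dim probes left these genes out of the test, and a signal not well above background gives only a bound.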

How the data were processed

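Total RNA of 8 hearts was labelled with Cy3 and read on one-colour Agilent arrays. The deposited scanner tables hold processed spot intensities on a linear scale, with the background subtracted on each array, per the file headers. Agilent Feature Extraction was at version 10.5.1.1 for slide 1 and 10.7.3.1 for slide 2, per the file headers. Version 9.1 is the one in the submitters' processing notes. Slide, scan and software version cannot be told apart. The authors' deposited value table holds linear ratios and served as an alternative, with no account of how they were made in the labels. Of 45018 spots per array, 1639 controls and spots marked as outliers were left out. Log2 values had each array's 75th percentile subtracted, spots of a probe were averaged, and 26480 of 41174 probes, those well above background on at least 4 arrays, were kept.

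Probes were named through RefSeq (GRCm38.p6, 26690 named, 14484 unnamed), and a gene was represented by its brightest kept probe. No Kcn spot was saturated, and no representative Kcn value was left out as an outlier. Groups were compared with limma 3.58.1 (R 4.3.3, with the package data.table at version 1.17.8), with Benjamini-Hochberg adjustment over 20203 genes and unnamed probes at 0.05. Python 3.11.15, pandas 2.3.3 and matplotlib 3.10.9 were used for motifs and figures. The fit was tested on simulated data. The number of arrays limits the precision.

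Same-numbered hearts deviated together from their group means (correlations 0.439, 0.475, 0.33 and 0.493). Differently numbered hearts on the same slide did so as well (0.29 to 0.522), and hearts on different slides deviated in opposite directions (-0.531 to -0.283). On slide 1 the same-numbered values (0.439 and 0.475) lay below the differently numbered ones (0.522 and 0.515). On slide 2, 0.33 lay between the differently numbered 0.29 and 0.431, and 0.493 lay above both. The check thus gave no clear pairing beyond the shared slide, and so few values cannot exclude one. Centring on group means favours opposite signs between slides, and the labels name no shared litter or day.

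The naming rule took all called Kcn genes and all measured subunits of the list of repolarising and resting currents. It also took the 4 uncalled Kcn genes with the smallest p. Of each of 3 further lists it took up to 4 called genes with the smallest p. Further Kcn genes, among them Kcnc4, Kcnip3 and Kcnn4, and some marker genes, such as Gja5, were named outside this rule. The members and lists were chosen with earlier results of these data known. Counts cover all genes tested, and a few of these genes are not reported by name here. Alternatives covered background correction, normalization, dim probes, several probes per gene, outlier spots, slide, pairing, array weights, the value table and each heart left out.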

Additional observations from a re-analysis of the deposited data

Results flagged for a closer look

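Among the genes chosen by the naming rule, 82 sets of 4 hearts of a group were tested for a heart far from the others. Of these sets, 3 had one, fewer than the about 1 in 20 that chance flags. Each value is the gap from that heart to its nearest neighbour, divided by the range of the 4 hearts on the log2 scale. Fasted heart 1 stood above the other fasted hearts in Kcne1l, with a gap of 0.862 of the range. Fasted heart 3 stood below the other fasted hearts in Kcna4, with 0.883, and in Kcna5, with 0.969.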

How the results depend on the processing

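Of the 22 alternatives, none turned the direction of a called Kcn gene. The median difference of the measured Kcn genes, -0.31 in the comparison as reported, was -0.0674 with normexp background correction, -0.135 with no filter on dim probes and -0.141 on slide 1 alone. The 4073 calls over all genes became 2225 with no filter on dim probes, 7177 with the slide as a block, 6486 with the replicate block, 1883 on slide 1 alone and 1 on slide 2 alone. With one heart left out they ranged from 2495 (without satiated heart 4; 2520 without satiated heart 2) to 3690. The Kcn genes called lower numbered 4 on slide 1 alone, and 5 (without satiated heart 3) to 8 with one heart left out. On slide 2 alone, limma called 0 Kcn genes higher and 0 lower. At an unadjusted p under 0.05 limma found 2 of the 43 higher and 11 lower there. Over all 20203 genes and unnamed probes tested, 5333 lay under that p on slide 2 alone, in either direction. Of the partner, regulator and transport genes, 7 were higher and 10 lower as reported. The higher ones became 3 with no filter, 13 with every probe tested on its own, 2 on slide 1 alone and 0 on slide 2 alone, and ranged from 3 (without satiated heart 1, satiated heart 4 or fasted heart 1) over 4 (without satiated heart 2 or fasted heart 4) to 5 with one heart left out. The lower ones became 16 with every probe, 23 with the slide block, 21 with the replicate block and 0 on slide 2 alone, and ranged from 7 to 11 with one heart left out. At an unadjusted p under 0.05, 9 higher and 15 lower of them were found by limma on slide 2 alone. Those counts, too, stand beside the 5333 of 20203 over all tested. These slide fits hold fewer hearts, and for the other changes the cause was not tested. The replicate block lost none of the 11 called Kcn genes.

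Naming probes by the gene name column was not run, since the tables used here hold no such column, and normexp used the median signal in place of the mean. Signals near background limit the dim genes most. Kcne1l and Kcnmb1, both dim, lost their calls with normexp and with no filter, where Kcnj14 was added, and Kcne1l with array weights (limma, adjusted p = 0.264). Kcna6, which is not among the dim genes, kept its difference of -0.76 with no filter and missed the threshold there (limma, adjusted p = 0.112).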
